A study of Mus musculus with 21 samples.

Results

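The 10 genes described here, Prdm1, Irf4, Xbp1, Jchain, Sdc1, Mzb1, Ell2, Tent5c, Cd38 and Slamf7, are regulators and markers of antibody secretion and were taken by gene symbol from the 56953 genes of the count tables. All 10 were matched to 1 gene each. RNA was sequenced from B cells sorted from the peritoneal cavity of WT mice and of mice with global knockout of TET2 (TET2-KO), and the 21 libraries comprised B-1a cells (4 WT, 4 TET2-KO), B-1b cells (4 WT, 3 TET2-KO) and B-2 cells (2 WT, 4 TET2-KO). The TET2-KO allele lacks the exons that encode the catalytic region of TET2 in every cell of the mouse, so other cells of these mice lack it too. B-1a cells were sorted as IgD-lo, CD23-lo, B220-lo and CD5+ cells and B-1b cells by the same gate without CD5. CD138, the protein that Sdc1 encodes, was not among the sorting antibodies, so the sort neither removed nor selected cells that carry it. The mice are described as young, and their sex is not given in the sources used here.

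Plasma cells are B cells that have switched to the secretion of antibody. BLIMP-1, the repressor encoded by Prdm1, and IRF4 together drive this switch and turn off the B cell programme. XBP1 then expands the endoplasmic reticulum. The J chain, the chaperone MZB1, the elongation factor ELL2 and the mRNA poly(A) polymerase TENT5C all serve the making of secreted immunoglobulin. CD138 and SLAMF7 are surface proteins of plasma cells, although SLAMF7 is also found on other leukocytes. CD38 is a surface protein of many leukocytes, B cells among them, and its level alone does not mark plasma cells. B-1 cells are known as a source of natural IgM, which they secrete in the absence of immunization. TET2 oxidizes methylated cytosine, which in mammals lies mostly in CG dinucleotides.

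Total counts per library ranged from 9667187 to 24152518. Levels are given in CPM, counts scaled to library size, after TMM scaling over all 21 libraries. The TMM factors ran from 0.753 in the library labelled B-1b WT 1 to 1.54 in B-2 TET2-KO 4. Cd79a, which encodes a chain of the B cell receptor, lay between 5122 and 14500 CPM in all libraries. The subset labels held in the TET2-KO libraries: Fcer2a, which encodes the B-2 marker CD23, was at 484 to 834 CPM in the B-2 libraries and at 4.61 to 42.7 CPM in the B-1a and B-1b libraries. Among the WT libraries, those numbered 1 and 2 went against their subset labels. Fcer2a was at 815 CPM in the library labelled B-1a WT 1 and at 598 CPM in the library labelled B-1b WT 2, but at 24.2 CPM in the library labelled B-2 WT 1. Cd5 was at 18.7 CPM in the library labelled B-1b WT 1 and at 1.64 CPM in the library labelled B-1a WT 2. The labels were kept, and for each genotype or WT comparison the fold changes of the 10 genes named singly are given with and without the 5 libraries labelled WT 1 or WT 2. These 5 libraries, B-1a TET2-KO 4 and B-1b TET2-KO 3 also stood apart in the number of genes detected, 17816 to 19255 against 23913 to 35576 in the other 14 libraries. Counts on the whole Tet2 gene, from 8.46 to 27.2 CPM in WT and from 12.6 to 30.3 CPM in TET2-KO libraries, do not read the deleted exons. Macrophage transcripts were present in all libraries, with a summed level of 10 marker genes between 4195 and 29430 CPM.

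The test between B-1a and B-2 cells, given below, was made within TET2-KO libraries and does not compare genotypes. The sequences upstream of 3 of the genes that passed it are shown because they differ in CG dinucleotides. They were taken from RefSeq (table of build GRCm38.p6), matched exactly and uniquely to GRCm39, and run from 5′ to 3′ toward the start of transcription, without bases of annotated exons. All 3 genes lie on the minus strand. CG dinucleotides are in capitals. The Prdm1 stretch, chr10:44334781-44334994, holds 14 of them. The Jchain stretch, chr5:88675757-88676006, and the Slamf7 stretch, chr1:171476581-171476817, hold 3 each. The Prdm1 and Slamf7 stretches lie inside the annotated spans of these genes, upstream of an internal start, and the Jchain stretch lies upstream of the gene.
Prdm1: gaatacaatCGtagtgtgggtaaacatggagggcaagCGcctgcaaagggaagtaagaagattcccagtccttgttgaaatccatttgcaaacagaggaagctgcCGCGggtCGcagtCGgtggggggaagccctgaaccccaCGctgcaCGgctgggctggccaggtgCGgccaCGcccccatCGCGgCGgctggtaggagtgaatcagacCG
Jchain: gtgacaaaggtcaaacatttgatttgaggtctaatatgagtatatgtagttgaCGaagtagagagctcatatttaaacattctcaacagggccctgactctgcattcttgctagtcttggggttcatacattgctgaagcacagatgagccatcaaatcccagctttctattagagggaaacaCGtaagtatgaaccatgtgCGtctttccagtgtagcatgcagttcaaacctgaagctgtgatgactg
Slamf7: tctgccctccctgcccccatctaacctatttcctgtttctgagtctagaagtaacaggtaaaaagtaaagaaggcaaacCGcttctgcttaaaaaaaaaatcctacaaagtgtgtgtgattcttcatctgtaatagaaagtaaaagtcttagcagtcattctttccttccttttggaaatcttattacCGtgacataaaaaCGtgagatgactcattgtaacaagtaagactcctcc

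Over full windows of 250 bases upstream of the RefSeq start, 9 of the 10 genes had an entry. Exons that GENCODE annotates for the same gene overlap these windows, by 250 bases for Ell2 and Cd38, 194 for Tent5c and 139 for Sdc1, so that they are not all promoter sequence. The median over all 32851 windows was 6 CG dinucleotides. Tent5c held 37, more than 97.8% of all windows held, followed by Ell2 with 19, Prdm1 with 15, Irf4 with 11, Sdc1 with 10 and Xbp1 with 8. Jchain and Slamf7 held 3 and Cd38 held 1. Methylation was not measured in these libraries.

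The 10 genes spanned a wide range of levels. Per kilobase of exon, so that genes can be compared, the medians over all libraries were highest for Cd38 (131 CPM per kb), Mzb1 (86.7) and Xbp1 (57.4), intermediate for Irf4 (11.9), Slamf7 (11.4) and Jchain (6.28), and lowest for Ell2 (2.64), Tent5c (1.41), Prdm1 (0.796) and Sdc1 (0.667). Prdm1 thus was detected in every library, with 14 to 158 counts, but at a low level. Sdc1 had 0 counts in 2 libraries, B-1a TET2-KO 4 and B-1b TET2-KO 3, which allows levels up to 0.171 and 0.17 CPM (3 counts; counting error only). Among the 9 genes with counts in every library, Jchain varied most, 81.2-fold between the lowest and the highest level, and Irf4 varied least, 2.45-fold. Of the 50 pairs of neighbours in the order of the 6 group means, taken gene by gene, the ranges of 48 overlapped. The exceptions were Jchain, higher in all B-1b TET2-KO than in all B-1a TET2-KO libraries, and Mzb1, higher in both B-2 WT than in all B-2 TET2-KO libraries.

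Group means (± SD) of Prdm1, Irf4, Xbp1, Ell2 and Cd38 are given with all labels kept and the group sizes given above, and then for the WT groups without WT 1 and WT 2, which leaves 2, 2 and 1 libraries. Prdm1 averaged 5.63 ± 2.75 CPM in WT and 6.69 ± 1.53 CPM in TET2-KO B-1a cells, 5.73 ± 3.98 and 3.57 ± 1.06 CPM in B-1b cells, and 2.94 ± 2.41 and 1.70 ± 0.654 CPM in B-2 cells. Irf4 averaged 62.8 ± 3.52 CPM in WT and 50.4 ± 12.9 CPM in TET2-KO B-1a cells, 66.7 ± 7.45 and 58.8 ± 3.12 CPM in B-1b cells, and 57.8 ± 0.879 and 49.2 ± 7.20 CPM in B-2 cells. Xbp1 averaged 202 ± 73.4 CPM in WT and 161 ± 47.4 CPM in TET2-KO B-1a cells, 217 ± 39.97 and 221 ± 17.5 CPM in B-1b cells, and 213 ± 93.5 and 142 ± 55.2 CPM in B-2 cells. Ell2 averaged 27.6 ± 3.20 CPM in WT and 28.6 ± 4.56 CPM in TET2-KO B-1a cells, 29.04 ± 4.63 and 34.2 ± 10.7 CPM in B-1b cells, and 29.1 ± 11.1 and 20.98 ± 4.42 CPM in B-2 cells. Cd38 averaged 567 ± 113 CPM in WT and 492 ± 144 CPM in TET2-KO B-1a cells, 536 ± 66.6 and 566 ± 97.9 CPM in B-1b cells, and 513 ± 247 and 300 ± 81.7 CPM in B-2 cells. With all libraries, each of the 5 genes had its lowest mean in the B-2 TET2-KO group, and the ranges of all neighbouring groups overlapped. Without WT 1 and WT 2 the B-1a, B-1b and B-2 WT levels were 7.69, 5.46 and 1.23 CPM for Prdm1, 65.1, 64.5 and 58.4 CPM for Irf4, and 139.9, 183 and 147 CPM for Xbp1. They were 27.4, 28.1 and 21.2 CPM for Ell2 and 501, 567 and 338 CPM for Cd38. The lowest mean then was that of B-2 WT for Prdm1 and that of B-1a WT for Xbp1, and stayed that of B-2 TET2-KO for the other 3 genes.

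**Figure D1:**
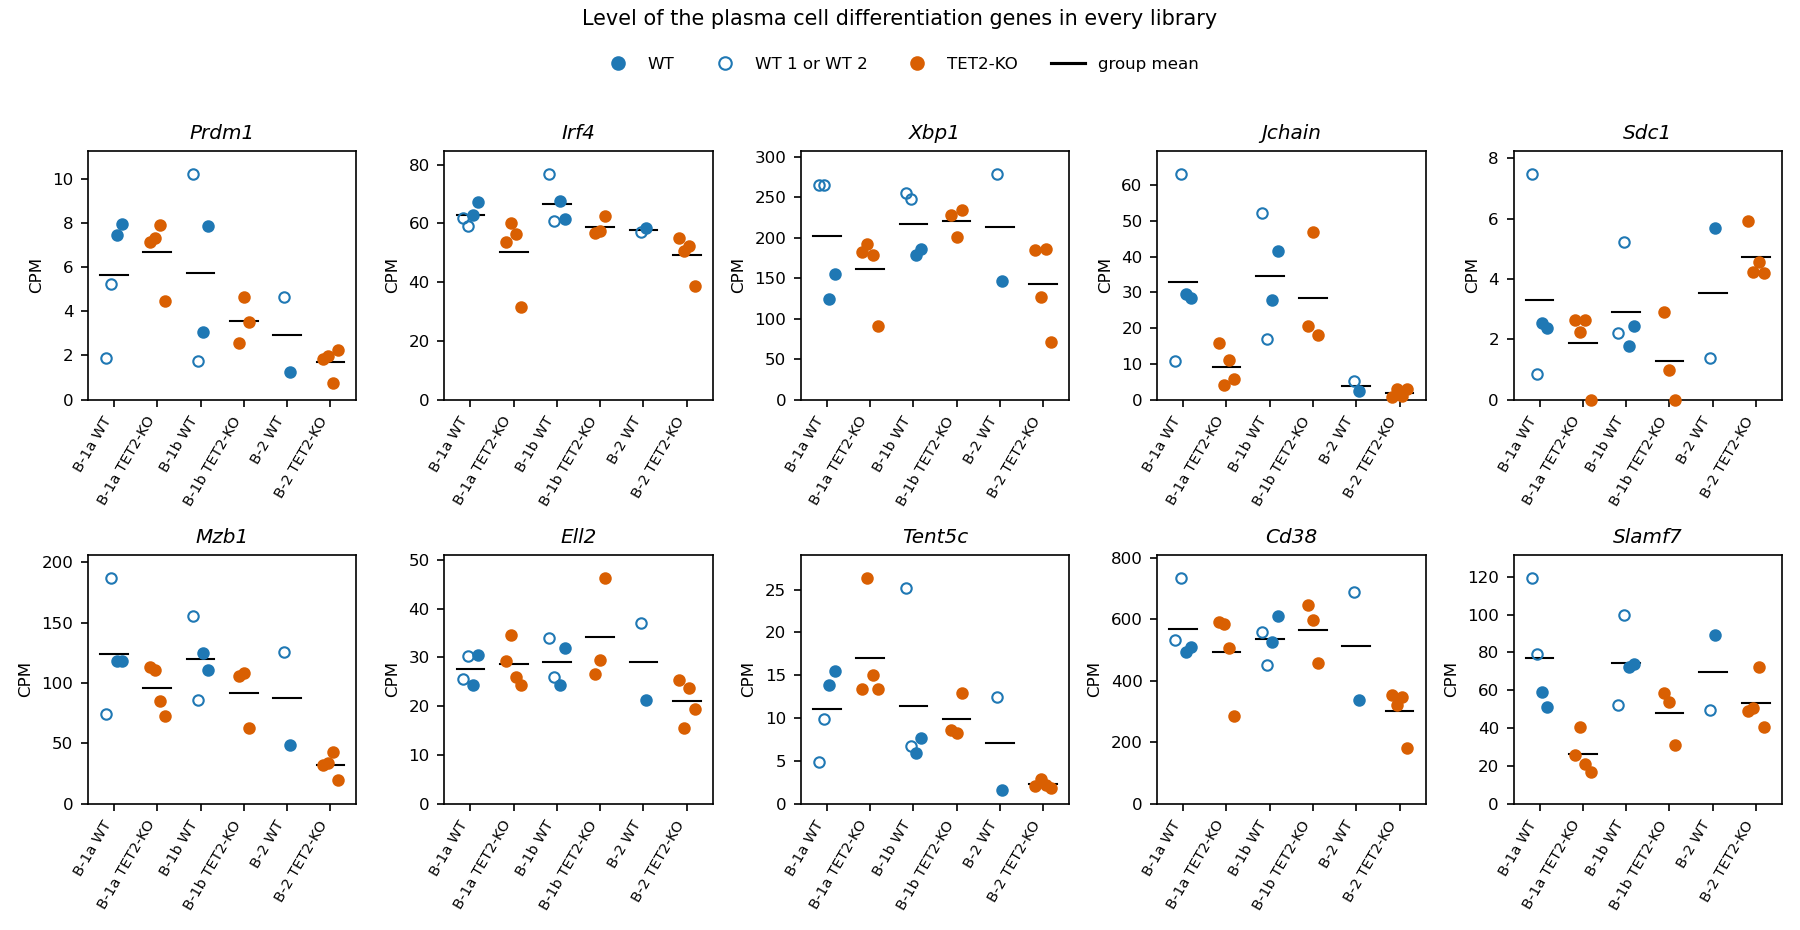
Level of each of the 10 genes in CPM (vertical axis, linear, from 0) in each of the 21 libraries (points), by subset and genotype, with the group mean (black line). Open points are the libraries labelled WT 1 or WT 2. Jchain, Mzb1 and Tent5c were low in the B-2 TET2-KO libraries, and Slamf7 was low in the B-1a TET2-KO libraries.

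The first comparison asked how B-1a cells differ from B-2 cells within the TET2-KO libraries, whose subset labels held. Prdm1, Jchain, Mzb1 and Tent5c were higher in B-1a cells and Slamf7 was lower, so that 5 of the 10 genes passed an adjusted p of 0.05 in edgeR's quasi-likelihood test. Over all 18555 genes tested, 5.82% passed, 3.26% as higher and 2.57% as lower. The median log2 fold change was 0.55 over the 10 genes and -0.05 over all genes tested.

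Among the regulators, Prdm1 was at 7.12, 7.30, 7.89 and 4.44 CPM in the 4 B-1a libraries and at 1.85, 1.98, 0.752 and 2.23 CPM in the 4 B-2 libraries. The groups did not overlap, and the difference was 3.81-fold (log2 1.93 ± 0.46 SE, adjusted p = 0.0209, edgeR). Irf4, the other transcription factor that starts the switch, lay at 31.5 to 60.2 CPM in B-1a and at 38.7 to 55.0 CPM in B-2 cells, with a log2 fold change of 0.0034 ± 0.20 (adjusted p = 0.994, edgeR) whose sign turned with the scaling. Xbp1 lay at 90.5 to 192 CPM in B-1a and at 70.7 to 186 CPM in B-2 cells, with a log2 fold change of 0.15 ± 0.28 (adjusted p = 0.789, edgeR). After TMM scaling, the libraries numbered 4 had the lowest Irf4, Xbp1, Cd38 and Mzb1 levels of both groups. They also had the lowest summed macrophage levels, 4578 CPM in B-1a and 4195 CPM in B-2 cells, and the part of this in the levels was not tested. On total counts, Irf4 was at 59.2 CPM in B-2 TET2-KO 4 and lower, at 54.5 CPM, in B-2 TET2-KO 3.

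Of the genes of immunoglobulin assembly and secretion, 3 of 4 passed. Tent5c (chr3:100358944-100396640), which stabilizes immunoglobulin mRNA in plasma cells, was at 13.4, 26.4, 14.98 and 13.3 CPM in B-1a and at 2.09, 2.89, 2.20 and 1.76 CPM in B-2 libraries. All B-1a libraries thus were above all B-2 libraries, by 7.43-fold (log2 2.89 ± 0.32, adjusted p = 4.48e-05, edgeR). Jchain (chr5:88667668-88675750), the joining peptide of polymeric IgM and IgA, was at 15.8, 4.02, 11.2 and 5.75 CPM in B-1a and at 0.778, 2.96, 0.967 and 2.85 CPM in B-2 libraries. The groups again did not overlap (4.76-fold, log2 2.25 ± 0.53, adjusted p = 0.0226, edgeR). On total counts without TMM scaling they did, with B-1a TET2-KO 2 at 3.53 CPM and B-2 TET2-KO 4 at 4.345 CPM. Mzb1, an endoplasmic reticulum chaperone of IgM, was at 114, 111, 85.0 and 72.9 CPM in B-1a and at 32.1, 33.5, 42.3 and 19.9 CPM in B-2 libraries. Every B-1a library was above every B-2 library, by 2.93-fold (log2 1.55 ± 0.25, adjusted p = 0.00117, edgeR). Ell2, which favours the secreted form of the heavy chain mRNA, did not pass (log2 0.41 ± 0.22, adjusted p = 0.261, edgeR).

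Of the surface proteins, Slamf7 went the other way. It was at 25.6, 40.7, 20.9 and 16.8 CPM in B-1a and at 48.8, 50.5, 72.3 and 40.5 CPM in B-2 libraries, and the highest B-1a library lay just above the lowest B-2 library. The log2 fold change was -1.06 ± 0.28 (adjusted p = 0.0375, edgeR). Sdc1, the classical plasma cell marker, was at 2.65, 2.23, 2.65 and 0 CPM in B-1a and at 5.92, 4.23, 4.57 and 4.199 CPM in B-2 libraries. Although the groups did not overlap, Sdc1 did not pass the test (log2 -1.36 ± 1.03, adjusted p = 0.444, edgeR). Both libraries with Sdc1 at 0 were low in genes detected, 18941 in B-1a TET2-KO 4 and 17816 in B-1b TET2-KO 3, while the B-2 TET2-KO libraries held 27669 to 35576, and the part of this in the difference was not tested. Without these 2 libraries the log2 fold change was -0.88 ± 0.40 (adjusted p = 0.15, edgeR). Cd38 had a log2 fold change of 0.68 ± 0.26 and did not pass (adjusted p = 0.123, edgeR). With the replicate number as a block it passed (log2 0.67 ± 0.13, adjusted p = 0.00849, edgeR).

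In all, after TMM scaling, 4 of the 10 genes were higher in every B-1a library than in every B-2 library (background over all genes tested, 8.9%) and 1, Sdc1, was lower (background, 10.1%). On total counts the Jchain ranges overlapped. The calls of Mzb1 and Tent5c held when any 1 of the 8 libraries was left out. The number of genes past the threshold dropped to 2 without B-1a TET2-KO 1, B-1a TET2-KO 3, B-2 TET2-KO 1 or B-2 TET2-KO 3, and to 3 without B-2 TET2-KO 2, with adjusted p-values up to 0.0699 for Prdm1, 0.0712 for Jchain and 0.109 for Slamf7. Prdm1 and Slamf7 each missed the threshold in 6 and Jchain in 4 of the 8 fits that left out 1 library. Slamf7 was at an adjusted p of 0.0662 (edgeR) in a fit of all 21 libraries. Without B-1a TET2-KO 4 and B-1b TET2-KO 3, which was tried after seeing the data, the 5 genes passed and Cd38 did too (log2 0.94 ± 0.22, adjusted p = 0.0187, edgeR). In bulk libraries, a few cells with much of a transcript and many cells with little of it cannot be told apart.

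B-1b cells were compared with B-2 cells in the same fit, with the same B-2 libraries. Jchain, Mzb1 and Tent5c were higher in B-1b cells, so that 3 of the 10 genes passed, against 2.15% of all genes tested in either direction and 1.52% as higher. Jchain was at 20.5, 46.8 and 18.2 CPM in the 3 B-1b libraries, all above the highest B-2 library at 2.96 CPM (14.7-fold, log2 3.88 ± 0.58, adjusted p = 0.00188, edgeR). Tent5c was at 8.57, 8.21 and 13.0 CPM in B-1b libraries, again above all B-2 libraries (log2 2.10 ± 0.33, adjusted p = 0.00222, edgeR). Mzb1 was at 105, 108 and 62.3 CPM in B-1b libraries (log2 1.49 ± 0.26, adjusted p = 0.00534, edgeR). These 3 calls held without any 1 of the 7 libraries, but in a fit of all 21 libraries Jchain alone passed (adjusted p = 0.0789 for Mzb1 and 0.108 for Tent5c, edgeR). Without B-1a TET2-KO 4 and B-1b TET2-KO 3 the 3 genes and Cd38 passed (Cd38, log2 1.07 ± 0.25, adjusted p = 0.0321, edgeR).

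The other 7 genes did not pass between B-1b and B-2 cells. Prdm1 was at 2.54, 4.65 and 3.51 CPM in B-1b libraries, after TMM scaling above the highest B-2 library at 2.23 CPM (log2 1.02 ± 0.48, adjusted p = 0.259, edgeR). The log2 fold changes of Cd38, Ell2, Xbp1 and Irf4 were 0.88 ± 0.27, 0.66 ± 0.24, 0.60 ± 0.30 and 0.22 ± 0.22 (adjusted p = 0.114, 0.157, 0.284 and 0.612, edgeR). With the replicate number as a block Cd38 passed (log2 0.67 ± 0.15, adjusted p = 0.0282, edgeR). Slamf7 was at 58.3, 53.8 and 31.1 CPM in B-1b libraries and overlapped with B-2 libraries (log2 -0.19 ± 0.30, adjusted p = 0.768, edgeR), and its log2 fold change was 0.10 ± 0.26 without those 2 libraries. Sdc1 was at 2.90, 0.966 and 0 CPM in B-1b libraries, all below the B-2 libraries (log2 -1.91 ± 1.17, adjusted p = 0.375, edgeR). Counted by ranges alone after TMM scaling, 8 of the 10 genes were higher in every B-1b library than in every B-2 library (background, 7.99%) and Sdc1 was lower (background, 11.3%). On total counts without this scaling, the ranges of Prdm1, Irf4, Xbp1 and Ell2 overlapped. Their lowest B-1b levels then were 2.47, 55.0, 199 and 25.9 CPM, and their highest B-2 levels were 3.41, 63.3, 206 and 29.6 CPM. The summed macrophage level was the lowest of its group in both libraries in which Sdc1 had 0 counts, 4578 CPM in B-1a TET2-KO 4 and 6071 CPM in B-1b TET2-KO 3, but it was lower still in B-2 TET2-KO 4, at 4195 CPM, where Sdc1 was at 4.199 CPM. Its part in the Sdc1 levels was not tested.

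**Figure D2:**
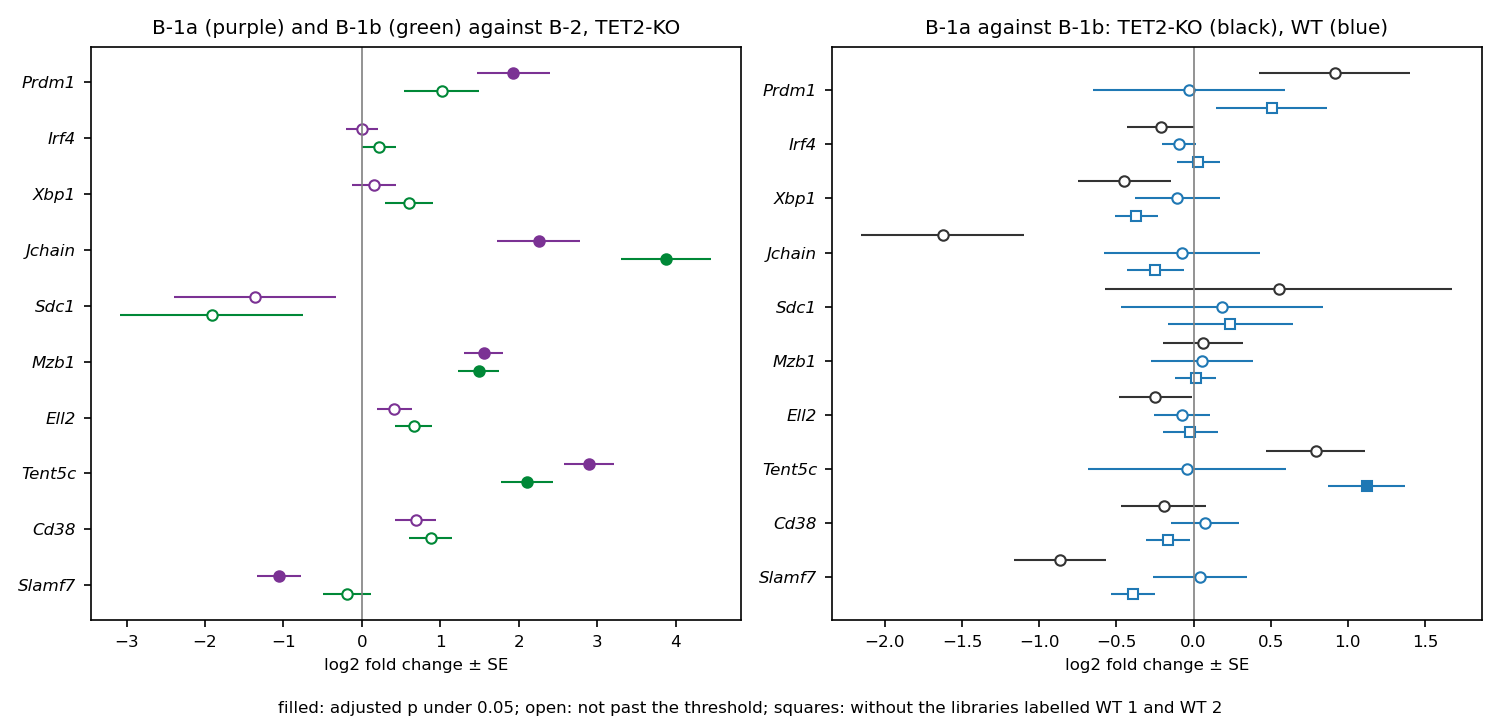
Log2 fold change with its SE (horizontal axis) of each of the 10 genes between sorted subsets, for B-1a (purple) and B-1b (green) against B-2 cells in TET2-KO libraries on the left and for B-1a against B-1b cells in TET2-KO (black) and WT (blue) libraries on the right. Filled symbols passed an adjusted p of 0.05 and squares leave out WT 1 and WT 2. Jchain, Mzb1 and Tent5c are filled in both comparisons on the left, and Tent5c without WT 1 and WT 2, at 1.12, is the filled symbol on the right.

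Between B-1a and B-1b cells of TET2-KO mice, 0 of the 10 genes passed in edgeR and 0 in DESeq2. An unadjusted p under 0.05 was found for 3, a count with no share of all genes beside it here. Over all genes 0.205% passed, which is 38 genes, or 103 with the replicate number as a block. Jchain was 4.02 to 15.8 CPM in B-1a and 18.2 to 46.8 CPM in B-1b libraries (log2 -1.63 ± 0.53, adjusted p = 0.665, edgeR). Slamf7 had a log2 fold change of -0.87 ± 0.30 and Tent5c one of 0.79 ± 0.32 (adjusted p = 0.700 and 0.840, edgeR). The other 7 genes lay between -0.45 and 0.91 on the log2 scale. By ranges after TMM scaling, Tent5c was higher and Xbp1 and Jchain were lower in all B-1a libraries, 3 of 10 genes against a background of 6.05% in either direction. On total counts the Tent5c ranges overlapped, with B-1a TET2-KO 1 at 12.8 CPM and B-1b TET2-KO 3 at 15.3 CPM.

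In WT libraries, 0 of the 10 genes passed between B-1a and B-1b cells, 0 had an unadjusted p under 0.05 and DESeq2 called 0. Over all 16769 genes tested 0% passed (edgeR), 206 had an unadjusted p under 0.05 and DESeq2 called 0. With WT 1 and WT 2 left out, 2 libraries remained for each B-1 subset and 1 for B-2 cells, and 3.22% of all genes passed. Tent5c was then the 1 gene of the 10 that passed, at 13.9 and 15.5 CPM in B-1a and at 5.95 and 7.69 CPM in B-1b libraries (log2 1.12 ± 0.25, adjusted p = 0.00857, edgeR). With all WT libraries its log2 fold change was -0.04 ± 0.64 (adjusted p = 1.000, edgeR), and B-1b WT 1 held 25.2 CPM. The direction without these libraries was that of the TET2-KO libraries. The other 9 genes lay between -0.10 and 0.19 with all WT libraries and between -0.39 (Slamf7) and 0.51 (Prdm1) without WT 1 and WT 2.

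The effect of TET2 loss was then compared within each subset. In B-1a cells, Slamf7 and Jchain had the largest differences, both lower in TET2-KO. In edgeR 0 of the 10 genes passed, against 0.0503% of all genes tested. These 2 genes had an unadjusted p under 0.05, a count with no share of all genes beside it here. DESeq2 called both genes, against 1.08% of all genes. Slamf7 was at 119, 79.1, 59.3 and 51.0 CPM in WT libraries 1 to 4 and at 25.6, 40.7, 20.9 and 16.8 CPM in TET2-KO libraries. No TET2-KO library reached the lowest WT library, as was the case for 3.38% of all genes tested (log2 -1.54 ± 0.32, adjusted p = 0.148, edgeR; 0.000755 in DESeq2). The library labelled B-1a WT 1, with the Fcer2a level of a B-2 library, held the highest Slamf7 level. Without WT 1 and WT 2 the log2 fold change was -1.08 ± 0.32 (adjusted p = 0.895, edgeR), and the groups still did not overlap.

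Jchain was at 10.8, 63.2, 29.6 and 28.4 CPM in B-1a WT and at 15.8, 4.02, 11.2 and 5.75 CPM in B-1a TET2-KO libraries. The groups overlapped only because of the library labelled B-1a WT 1, at 10.8 CPM. The log2 fold change was -1.81 ± 0.55 (adjusted p = 0.465, edgeR; 0.0255 in DESeq2) and, without WT 1 and WT 2, -1.65 ± 0.48 (adjusted p = 0.851, edgeR). The other 8 genes lay between -0.79 (Sdc1) and 0.66 (Tent5c) on the log2 scale, with adjusted p-values of 0.643 or more. Without WT 1 and WT 2 these 8 genes lay between -0.39 (Sdc1) and 0.22 (Tent5c), and the sign turned for Prdm1, from 0.28 ± 0.42 to -0.19 ± 0.31, and for Xbp1, from -0.29 ± 0.29 to 0.21 ± 0.30. The summed level of 5 erythroid marker genes was 1704, 965, 11.2 and 281 CPM in B-1a WT libraries 1 to 4 and 1.61 to 30.0 CPM in B-1a TET2-KO libraries, and its part in the differences was not tested.

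In B-1b cells, 0 of the 10 genes passed in edgeR and 0 in DESeq2, and Slamf7 was the 1 gene with an unadjusted p under 0.05. Over all 14368 genes tested 0% passed in edgeR, 787 had an unadjusted p under 0.05 and DESeq2 called 60. Slamf7 was at 52.1, 100, 72.3 and 74.0 CPM in WT and at 58.3, 53.8 and 31.1 CPM in TET2-KO libraries (log2 -0.62 ± 0.26, adjusted p = 0.838, edgeR). Only the library labelled B-1b WT 1, with the Cd5 level of a B-1a library, brought the ranges to overlap, and the log2 fold change without WT 1 and WT 2 was -0.61 ± 0.27. Jchain, at 16.9 to 52.1 CPM in WT and 18.2 to 46.8 CPM in TET2-KO libraries, had a log2 fold change of -0.26 ± 0.43, or -0.28 ± 0.44 without WT 1 and WT 2. The remaining genes lay between -1.17 (Sdc1) and 0.27 (Ell2), and between -0.73 (Sdc1) and 0.55 (Tent5c) without those libraries, where the signs of Tent5c and Cd38 turned.

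Whether TET2 loss acted differently in the B-1 subsets was tested as an interaction, in which 0 of the 10 genes passed, 0 had an unadjusted p under 0.05 and DESeq2 called 0 (0% of all 15972 genes in edgeR, 250 with an unadjusted p under 0.05, 1 in DESeq2). The B-1a effect minus the B-1b effect was -1.56 ± 0.76 for Jchain and -0.92 ± 0.44 for Slamf7 on the log2 scale (adjusted p = 1.000 for each, edgeR). Without WT 1 and WT 2 it was -1.37 ± 0.71 for Jchain and -0.47 ± 0.46 for Slamf7. Thus the lower Jchain in B-1a TET2-KO libraries was not shown to be particular to B-1a cells.

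In B-2 cells, with 2 WT libraries, 0 of the 10 genes passed in edgeR and 0 in DESeq2, and 2 had an unadjusted p under 0.05. Over all 19786 genes tested 0% passed in edgeR, 1754 had an unadjusted p under 0.05 and DESeq2 called 169. Mzb1 was at 126 and 48.4 CPM in WT libraries 1 and 4 and at 19.9 to 42.3 CPM in TET2-KO libraries (log2 -1.42 ± 0.38, adjusted p = 0.531, edgeR). Tent5c was at 12.5 and 1.64 CPM in WT and at 1.76 to 2.89 CPM in TET2-KO libraries (log2 -1.63 ± 0.71, adjusted p = 0.531, edgeR). Both rested on the library labelled B-2 WT 1, which had the Fcer2a level of a B-1 library. Without it, with 1 WT library whose spread is taken to be that of the others, the log2 fold change was -0.58 ± 0.37 for Mzb1 and 0.46 ± 0.86 for Tent5c, and without B-2 WT 4 both passed (adjusted p = 0.0319 and 0.0403, edgeR), as did 576 genes over the whole table. The other 8 genes lay between -0.96 (Jchain) and 0.44 (Sdc1), and between -0.74 (Slamf7) and 0.48 (Prdm1) without WT 1. By ranges after TMM scaling, Irf4 and Mzb1 were lower in all TET2-KO libraries, 2 of 10 genes against a background of 7.24%. On total counts the Irf4 ranges overlapped, with the library labelled B-2 WT 1 at 47.7 CPM and B-2 TET2-KO 3 at 54.5 CPM.

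**Figure D3:**
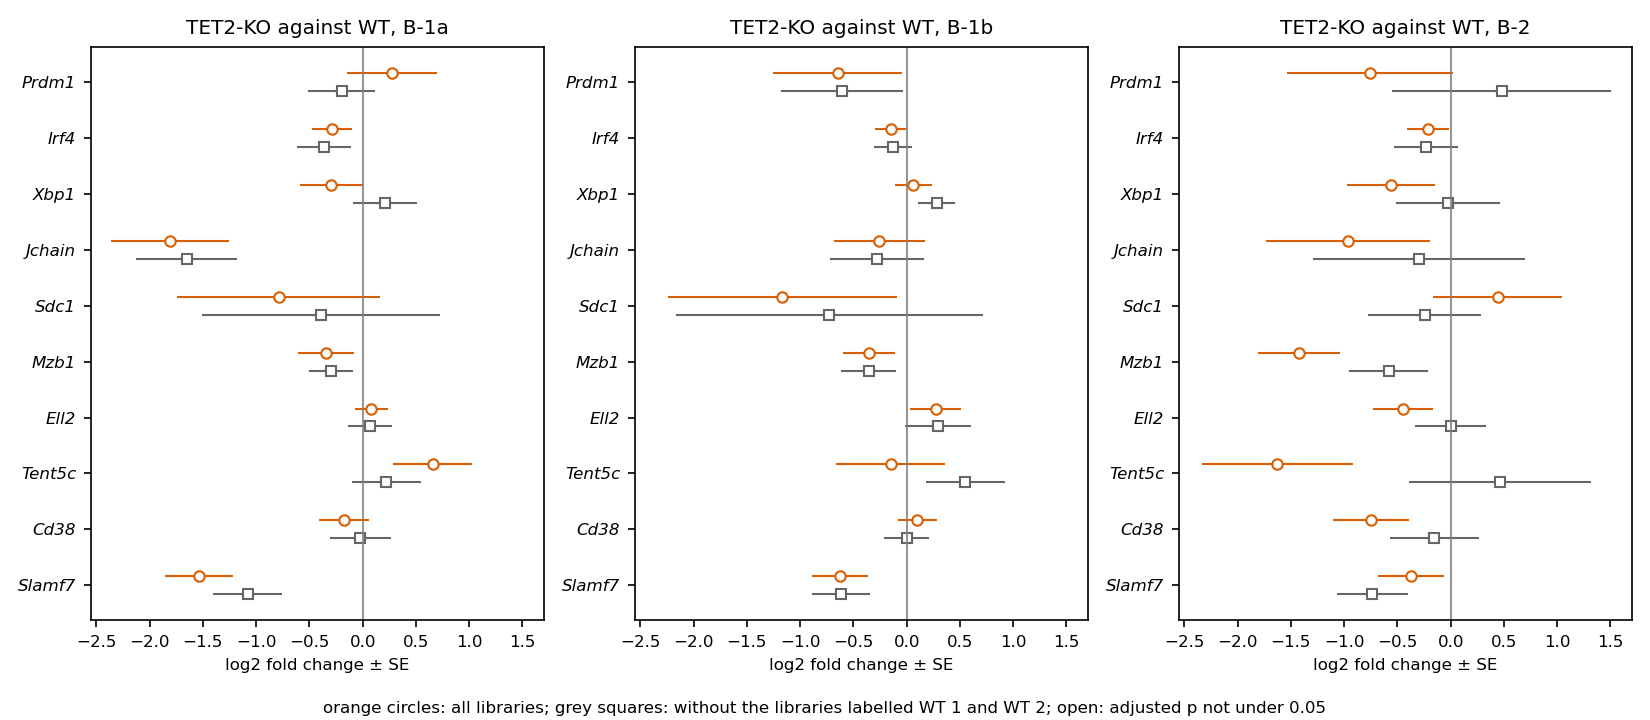
Log2 fold change with its SE (horizontal axis) of TET2-KO against WT for each of the 10 genes in each sorted subset, with all libraries (orange circles) and with WT 1 and WT 2 left out (grey squares). All symbols are open, since no gene passed an adjusted p of 0.05 in edgeR. Slamf7 lies below 0 in each panel, although in B-2 cells it lay at 0.15 when B-2 WT 4 was left out, and Jchain in B-1a cells lies at -1.81 with all libraries and at -1.65 without WT 1 and WT 2.

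The neighbours of the 10 genes in the plasma cell programme were described from 5 lists with 56 genes tested in the TET2-KO libraries, and their counts stand beside 3.26% of all genes higher and 2.57% lower for B-1a against B-2 cells, and 1.52% higher for B-1b against B-2 cells. Of 12 other plasma cell markers tested, 4 were higher in B-1a than in B-2 cells and 0 were lower (median log2 fold change, 0.45). Derl3, which serves degradation of misfolded proteins, rose most (log2 1.98 ± 0.38), followed by Eaf2, a partner of ELL2 (1.602 ± 0.36), and the survival kinase Pim2 (1.19 ± 0.28; adjusted p = 0.00493, 0.015 and 0.0187, edgeR). Levels of Tnfrsf17, the receptor BCMA of long-lived plasma cells, and of Bhlha15, the secretory cell factor MIST1, were at most 1.76 and 1.498 CPM in the TET2-KO libraries; both were picked for their role after their values were seen.

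Of 18 genes of folding and export in the endoplasmic reticulum linked to XBP1, all 18 had a log2 fold change above 0 in B-1a cells. Their median was 0.42, against -0.05 over all genes tested. Also above 0 were all 10 macrophage markers (median 0.25) and all 5 general B cell markers (median 0.23). Of the T cell markers 4 of 8 were above 0, and of the proliferation markers 3 of 6. Of the 18 genes 2 passed, Pdia4, a protein disulfide isomerase (1.36 ± 0.27, adjusted p = 0.00673, edgeR), and Edem1, which marks misfolded glycoproteins for degradation (0.75 ± 0.18, adjusted p = 0.0232, edgeR). Of 5 sensors and effectors of the unfolded protein response, Atf6 passed (0.74 ± 0.16, adjusted p = 0.013, edgeR). Between B-1b and B-2 cells, 17 of the 18 folding and export genes were above 0 (median 0.39) and Pdia4 passed (1.25 ± 0.29, adjusted p = 0.0334, edgeR). There, all 5 general B cell markers and 1 of 10 macrophage markers were above 0. Atf6 (0.89 ± 0.17) and, of the other plasma cell markers, Derl3 (2.06 ± 0.40) and the BAFF family receptor Tnfrsf13b (0.86 ± 0.19) passed there as well (adjusted p = 0.0122, 0.0116 and 0.0269, edgeR).

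Of 10 B cell identity genes that plasma cells silence, 4 were lower in B-1a than in B-2 cells and 1 was higher. The germinal centre repressor Bcl6 was lowest relative to B-2 cells (log2 -1.94 ± 0.25), followed by Bach2, which represses Prdm1 in B cells (-1.75 ± 0.18), and Irf8 (-1.43 ± 0.22; adjusted p = 0.000201, 2.17e-05 and 0.000752, edgeR). Myc, a growth regulator that BLIMP-1 represses, was higher (1.49 ± 0.32, adjusted p = 0.0106, edgeR). In B-1b cells, Bcl6 (-1.58 ± 0.28), Bach2 (-1.31 ± 0.20) and Id3 (-0.98 ± 0.24) were lower than in B-2 cells (adjusted p = 0.00527, 0.00148 and 0.0492, edgeR), and Id3 missed the threshold without B-1a TET2-KO 4 and B-1b TET2-KO 3 (adjusted p = 0.0731, edgeR).

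**Figure D4:**
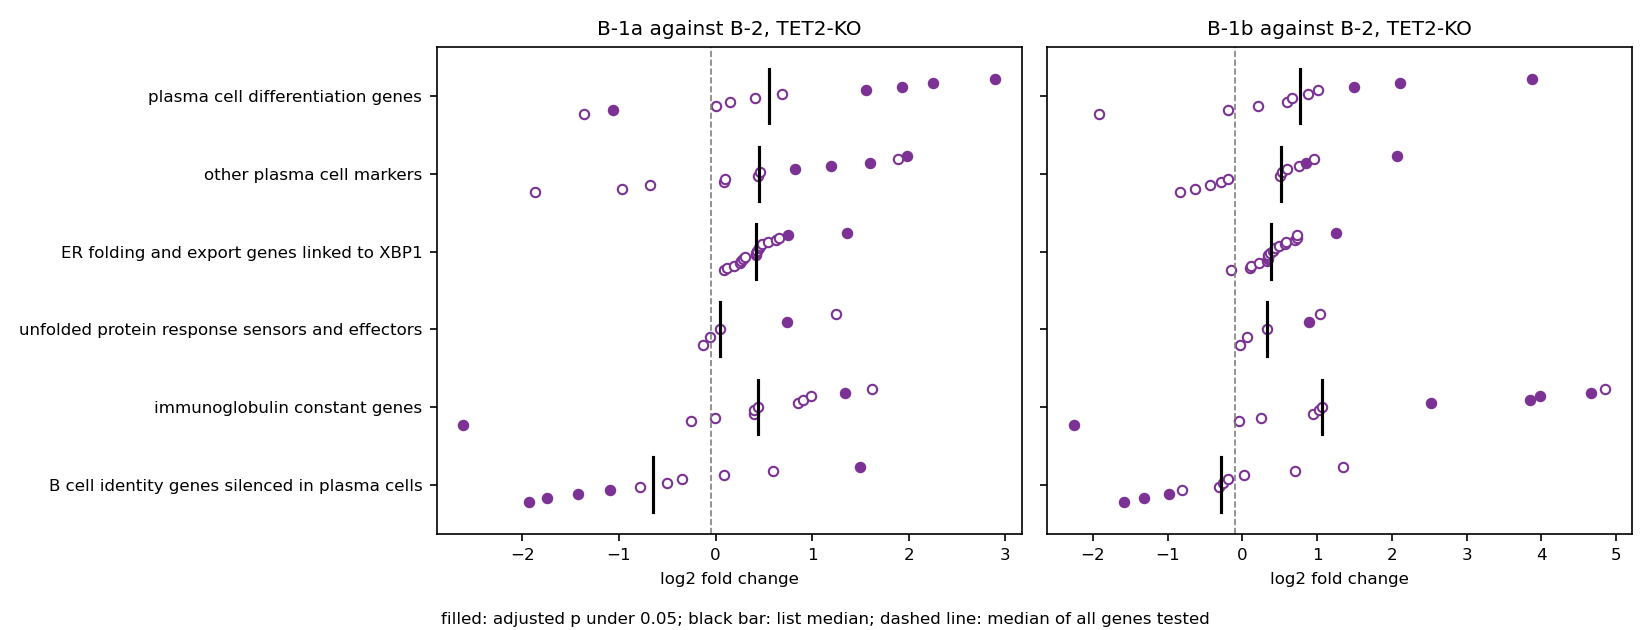
Log2 fold change (horizontal axis) of each gene tested in the 10 plasma cell differentiation genes and in 5 related lists, for B-1a (left) and B-1b (right) against B-2 cells in TET2-KO libraries. Filled points passed an adjusted p of 0.05, black bars are list medians and the dashed line is the median of all genes tested. All 18 folding and export genes lie above 0 on the left, with a median of 0.42, and Bcl6 and Bach2 lie at the lower end of the B cell identity list on both sides.

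Of 11 immunoglobulin constant genes tested, 3 were lower in B-1a than in B-1b cells of TET2-KO mice and 0 were higher, against 0.205% of all genes in either direction. Ighg2b (log2 -3.58 ± 0.49), Ighg3 (-2.50 ± 0.32) and Igha (-1.67 ± 0.28) passed (adjusted p = 0.0114, 0.00445 and 0.0219, edgeR), and with the replicate number as a block Ighg2c passed as well (-4.06 ± 0.76, adjusted p = 0.0441, edgeR). Without B-1a TET2-KO 4 and B-1b TET2-KO 3, Igha missed the threshold (-1.27 ± 0.27, adjusted p = 0.0871, edgeR). Ighm, the constant region of IgM, which is given for its role after its value was seen, did not pass (log2 -0.12 ± 0.32, adjusted p = 0.957, edgeR). Ighg2b lay at 3.25 to 24.6 CPM in B-1a and at 137 to 194 CPM in B-1b libraries. Against B-2 cells, 4 of the 11 genes were higher in B-1b and 1 in B-1a cells, beside 1.52% and 3.26% of all genes. The largest changes in B-1b cells were those of Ighg2c, Ighg2b and Ighg3, by 4.67 ± 0.78, 3.98 ± 0.50 and 3.85 ± 0.33 on the log2 scale (adjusted p = 0.00392, 0.000967 and 2.02e-05, edgeR). The gene higher in B-1a cells was Ighg3 as well (1.34 ± 0.30, adjusted p = 0.0131, edgeR). Ighd, the constant region of IgD, was lower in B-1a (-2.61 ± 0.21) and in B-1b cells (-2.26 ± 0.24) than in B-2 cells (adjusted p = 2.71e-06 and 7.87e-05, edgeR), and IgD was part of the sorting gate. Reads of these closely related constant genes may be split between them. Between TET2-KO and WT libraries, 0 genes of the 5 lists passed in any subset in edgeR. DESeq2 called 1 in B-1a, 0 in B-1b and 1 in B-2 cells. At an unadjusted p under 0.05 were 7 of 54 tested in B-1a, 4 of 56 in B-1b and 9 of 54 in B-2 cells. The count over all genes at that unadjusted threshold is given above for B-1b and B-2 cells but not for B-1a cells.

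The markers of other cells were compared in the same fits. Of 10 macrophage markers, 0 passed between B-1a and B-2 cells (edgeR), with summed levels of 4578 to 28160 CPM in B-1a, 6071 to 14800 CPM in B-1b and 4195 to 19230 CPM in B-2 TET2-KO libraries and no marker at 0. Of 4 dendritic cell markers tested, Flt3 was lower in B-1a (log2 -4.50 ± 0.74) and in B-1b (-3.67 ± 0.79) than in B-2 cells (adjusted p = 0.00194 and 0.0266, edgeR). Cd3g was the 1 of 8 T cell markers that passed, higher in B-1a cells (1.89 ± 0.38, adjusted p = 0.00713, edgeR). Of 5 NK cell and 6 proliferation markers, 0 passed in either comparison. All 5 B-1 markers were higher and all 4 B-2 markers were lower in B-1a than in B-2 cells, Fcer2a by -5.94 ± 0.38 (adjusted p = 6.97e-07, edgeR).

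Levels of the 10 genes were also compared with each other over all 21 libraries, as a description that mixes subset, genotype and library. The closest pairs in Pearson's r of log2(CPM + 1) were Mzb1 with Cd38 (0.885), Prdm1 with Tent5c (0.859) and Xbp1 with Cd38 (0.799), and Sdc1 with Tent5c was the most opposed (-0.581). Of 9636 genes with a mean of at least 5 CPM, those most like Prdm1 were Gstt3 (0.902), Rbm47 (0.887), St6galnac6 (0.886), Neo1 (0.882) and Ubash3b (0.872). The genes most like Jchain were Aldh7a1 (0.848), Gm25436 (0.827), Lmo7 (0.821), AW146154 (0.817) and Dkkl1 (0.815). The genes most like Sdc1 were Cdc42ep3 (0.933), Tifa (0.921), Rbpms (0.911), Dusp6 (0.889) and Eif4e3 (0.886). While 0 of these 15 genes was among the 10, Prdm1 and Sdc1 had a mean under 5 CPM and could not appear.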

How the data were processed

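RNA of sorted peritoneal B cells was measured in 21 libraries by ultra-low-input RNA sequencing. The deposited values are raw counts per gene. To make them, the authors used fastp for trimming, STAR for alignment (GRCm39) and featureCounts 1.6.1 (GENCODE M32, paired, unstranded). Library preparation is described in 2 ways, as amplified full-length cDNA and as poly-T selection with random priming.

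Counts were fitted for all genes with edgeR 4.0.16 (R 4.3.3): TMM, filterByExpr, robust quasi-likelihood tests and Benjamini-Hochberg adjustment at 0.05. Genotypes were tested subset by subset, the B-1a effect against the B-1b effect as an interaction, and subsets within the 11 TET2-KO or the 10 WT libraries. DESeq2 1.42.0 was an alternative. The methods were tested on simulated data. The members, lists and rules were chosen with earlier results of these data known. All 10 members are named in each comparison, and of the lists at most 3 genes per direction with the largest change past the threshold. Labels do not say that same-numbered libraries came from 1 mouse, and p-values measure the spread between libraries. Deviations of same-numbered B-1a and B-1b TET2-KO libraries correlated (r = 0.29, 0.147 and 0.203). With same-numbered B-2 TET2-KO libraries, r was 0.411, 0.081, -0.00291 and 0.278 for B-1a libraries 1 to 4. It was 0.337, 0.112 and -0.101 for B-1b libraries 1 to 3. Same-numbered B-1a and B-1b WT libraries had r = -0.0841, 0.0819, 0.262 and 0.297. Same-numbered libraries of 1 subset but different genotypes, which come from different mice, had r from -0.0766 to 0.319. The numbers may pair libraries, but this was not tested. The fit without the replicate number is the one reported, and for the 10 genes the blocked value stands beside it where a call changed. Unstranded counts cannot separate overlapping genes.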

Additional observations from a re-analysis of the deposited data

Results flagged for a closer look

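Of 40 sets of 4 libraries (10 genes in 4 groups), 5 held a library far from the other 3 by Dixon's test, where chance alone flags about 1 in 20. Xbp1 in B-1a TET2-KO 4 was at 90.5 CPM, against 179 to 192 CPM in the other 3. Sdc1 in the same library was at 0 CPM, against 2.23 to 2.65 CPM. Tent5c in B-1a TET2-KO 2 was at 26.4 CPM, against 13.3 to 14.98 CPM. Tent5c in the library labelled B-1b WT 1 was at 25.2 CPM, against 5.95 to 7.69 CPM, and its Cd5 level was that of a B-1a library. Cd38 in the library labelled B-1a WT 2 was at 735 CPM, against 493 to 532 CPM.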

How the results depend on the processing

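Of the 80 fold changes of the 10 genes in 8 comparisons, the 8 that passed kept their direction under every alternative run, and 35 of the others changed sign under at least 1. For TET2-KO against WT in B-1a cells, 0 genes passed, but DESeq2 called 2 (Jchain and Slamf7), and the fits without a low-count filter and with all 21 libraries called 1 each (Slamf7). Without the filter, 1 gene also passed in B-2 cells (Mzb1), in the interaction and between B-1a and B-1b TET2-KO cells (Jchain in both). The fit with all 21 libraries called 1 gene (Jchain) instead of 3 between B-1b and B-2 cells. Without the libraries labelled WT 1 and WT 2, 1 gene (Tent5c) passed between B-1a and B-1b WT cells, and 15 of 50 fold changes changed sign. Leaving out each library in turn gave 2 to 5 genes between B-1a and B-2 cells and 0 to 2 for TET2-KO against WT in B-2 cells.

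Irf4 between B-1a and B-2 cells changed sign, to -0.092 in DESeq2, -0.0041 without the filter, -0.13 with at least 10 counts in every library, -0.093 with RLE size factors, -0.060 with TMM without immunoglobulin genes and -0.029 with the block. Tent5c changed to 0.46 in B-2 cells without WT 1 and WT 2, and between B-1a and B-1b WT cells to 1.12 without them and to 0.39 with the block. With each library left out, ranges that crossed 0 were -0.085 to 0.18 for Irf4 and -0.065 to 0.35 for Xbp1 (B-1a against B-2), -0.34 to 0.0027 for Slamf7 (B-1b against B-2), -0.25 to 0.71 for Tent5c (WT subsets) and -2.43 to 0.46 for Tent5c (TET2-KO against WT, B-2). The cause was not tested.

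With the replicate number as a block, Cd38 also passed against B-2 cells in B-1a (0.67, adjusted p = 0.00849, edgeR) and B-1b cells (0.67, adjusted p = 0.0282, edgeR), and the genes called over the whole table went from 7 to 48 for TET2-KO against WT in B-1a cells, from 1080 to 1638 for B-1a and from 399 to 667 for B-1b against B-2 cells. Same-numbered libraries in these comparisons did not all deviate together. Counts over all genes that moved by over 1.5 times were, in DESeq2 and without the filter, 189 and 318 instead of 7 (TET2-KO against WT, B-1a), 60 and 131 instead of 0 (B-1b), 169 and 167 instead of 0 (B-2), 1 and 144 instead of 0 (interaction), 3478 and 1699 instead of 1080 (B-1a against B-2), 2872 and 870 instead of 399 (B-1b against B-2) and 141 and 123 instead of 38 (B-1a against B-1b TET2-KO), and 71 instead of 0 without the filter for B-1a against B-1b WT. With all 21 libraries they were 80, 7 and 6 for TET2-KO against WT in B-1a, B-1b against B-2 and B-1a against B-1b TET2-KO. RLE shifted the median of all genes against B-2 cells from -0.05 to -0.15 (B-1a) and from -0.10 to -0.20 (B-1b). Without B-1a TET2-KO 4 and B-1b TET2-KO 3, an alternative chosen after seeing the data, Slamf7 changed sign to 0.10 (B-1b against B-2), and the counts over all genes were 2186, 702 and 60 for B-1a against B-2, B-1b against B-2 and B-1a against B-1b TET2-KO, and 2 for TET2-KO against WT in B-1a cells. The lowest counts per library were 13 for Jchain, 14 for Prdm1 and 0 for Sdc1.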
